A study of Mus musculus with 8 samples.

Results

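Untreated splenocytes, the mixed cells of the mouse spleen, were compared between mice without p53 and wild-type (WT) mice. The comparison held 3 of the 8 arrays of the study: 2 arrays of p53-null control cells and 1 array of WT control cells, all from C57BL/6 mice aged 5 to 6 weeks. Each array carried RNA of cells pooled from the spleens of 4 mice and cultured in medium with 20% foetal calf serum. The labels give a carrier control (30% ethanol) for the amsacrine work and untreated cells for the irradiation work, and do not say which of these the control arrays were. They also do not say whether the p53-null pair came from separate pools or cultures, so p-values reflect the scatter of this pair alone, and that scatter may be technical. The remaining arrays, used below only where named, were p53-null amsacrine and WT amsacrine (1 µg per mL for 5 hours), p53-null irradiated (4 Gy), and a Δ122p53 control and amsacrine array, 1 of each. Probes entered when their detection p was under 0.01 on at least 1 of the 3 arrays, which 9354 of 24613 probes did. Of these, 8111 had a single gene symbol, and the brightest probe of each gene gave 6899 genes, against 7456 genes when all 8 arrays were considered. The 89 probes just inside this limit had a median highest signal of 113, and the 155 just outside had 110. Levels are log2 normalized intensities, and differences are p53-null minus WT on that scale.

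The transcription factor p53, encoded by Trp53, is kept at low levels in unstressed cells by the ubiquitin ligase Mdm2, and it is stabilised after DNA damage to switch on genes of cell cycle arrest, DNA repair and apoptosis. Loss of p53 in mice predisposes to lymphomas. The spleen combines lymphoid tissue with a red pulp in which macrophages clear aged red cells, and in the mouse it also produces red cells.

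The 3 arrays were of similar quality: median signal was 77.9 and 78.2 on the p53-null controls and 81.5 on the WT control, with 8065 and 8633 against 8374 probes detected. The p53-null controls did not lie closest to each other. Across the 6899 genes, p53-null control 2 had a Pearson correlation of 0.973 with WT, p53-null control 1 had 0.927 with WT, and the p53-null pair had 0.956. On p53-null control 1, 1018 genes (14.8%) lay at least 2-fold from WT, on p53-null control 2 only 200 (2.9%), and the pair differed from each other that far at 499 genes (7.23%). B and T cell markers were present throughout: all 14 tested markers of each type were detected on all 3 arrays. Trp53 and Xist had no named probe here, so the genotype labels were not checked against the targeted gene. The Y-linked Eif2s3y, a translation initiation factor subunit, was detected on every array, at 8.16 and 9.47 on the p53-null controls and 8.97 on WT.

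No gene passed the test of p53-null against WT. With limma and Benjamini-Hochberg adjustment over 6899 genes, 0 genes (0%) had an adjusted p under 0.05, and the smallest adjusted p was 0.734. Unadjusted p-values under 0.05 were found for 392 genes (5.68%), of which 199 (2.88%) were higher and 193 (2.8%) lower on the p53-null arrays. A fit with 2 arrays against 1 has 1 residual degree of freedom, and an exact permutation test of such arrays cannot go below 0.333. The genes below are therefore described by size. Both p53-null controls lay on the same side of WT at 75.6% of genes, above it at 2253 (32.7%) and below it at 2963 (42.9%). Both lay at least 2-fold above WT at 48 genes (0.696%) and at least 2-fold below WT at 70 genes (1.01%). These counts take the normalized value also where a gene was not detected on an array; such genes are pointed out below. With cyclic loess in place of quantile scaling these counts were 82 and 60, so the balance of higher and lower genes depended on the scaling. With the offset of the background correction raised to 50, they were 9 and 29. All 118 genes had an unadjusted limma p under 0.05, which the rule of size favours.

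**Figure D1:**
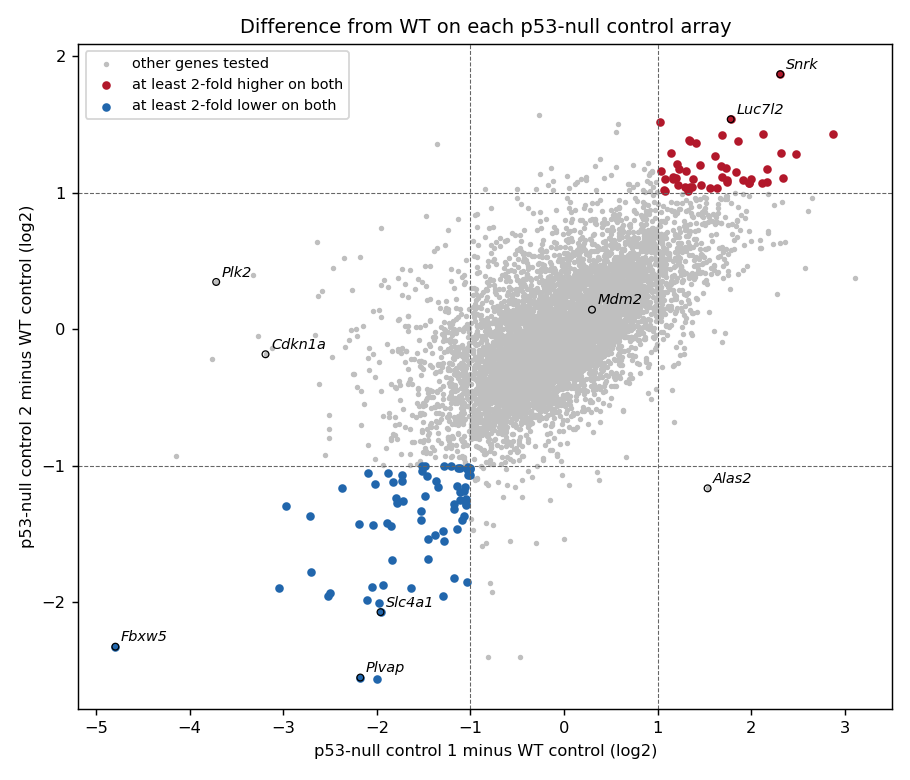
Difference from the WT control (log2) of p53-null control 1 (horizontal axis) and p53-null control 2 (vertical axis) for 6899 genes, with dashed lines at 2-fold. The 48 genes in the upper right and the 70 in the lower left are at least 2-fold from WT on both arrays; the cloud is wider along the horizontal axis, and Cdkn1a, Plk2 and Alas2 lie far from WT on one array and not, or the other way, on the other.

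Genes that p53 switches on lay on both sides of WT in p53-null control cells. Of 45 listed p53 target genes 28 were tested. Both p53-null controls were higher than WT at 11 and lower at 8, and 9 were split. Over all genes, 32.7% were higher on both and 42.9% lower, and 1683 of 6899 were split. The median difference was 0.04, against -0.08 over all genes. Mdm2 stood at 10.60 and 10.44 on the p53-null controls and 10.30 on WT, a difference of 0.22 ± 0.34 (limma SE). All 3 values lay close together, with both p53-null controls above WT.

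Dcxr, which encodes dicarbonyl and L-xylulose reductase, was the only listed p53 target at least 2-fold lower on both arrays. Its levels were 6.81 and 6.78 on the p53-null controls and 7.81 on WT, a difference of -1.01 ± 0.34. The tripartite motif gene Trim7 went the other way, with 6.12 and 6.22 on the p53-null controls against 5.14 on WT, where it was not detected. Cdkn1a, the gene of the cell cycle inhibitor p21, was split in size: it was not detected on p53-null control 1 (4.97), and had 7.98 on p53-null control 2 against 8.16 on WT. Its difference was therefore -1.69 with an SE of 1.12. Plk2, which encodes a polo-like kinase, lay below WT on p53-null control 1, where it was not detected (5.52), and above it on p53-null control 2 (9.58), with 9.23 on WT. For both genes the p53-null pair differed from each other by more than p53-null control 2 differed from WT.

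On the amsacrine arrays, where DNA damage was applied, the same 28 genes looked different. There 21 of 28 were lower in p53-null than in WT cells, with a median of -1.05, against 55.2% of all genes lower and a median of -0.06. The p53-null minus WT difference was -1.64 for Mdm2, -2.99 for Cdkn1a and -2.80 for Dcxr. Trim7, higher in p53-null control cells, differed by -2.27 after amsacrine. The p53-null amsacrine values of Trim7 (4.77) and Dcxr (5.43) lay below the lowest detected signal of that array (5.95). The sizes of these 2 differences are therefore uncertain. Among the interaction terms of all genes (control against amsacrine), 0 had an adjusted limma p under 0.05 and 90 (1.3%) an unadjusted one, so no gene's change of difference passed the test.

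Of 16 tested p53 regulators, genes that act on p53, 8 were higher on both p53-null controls and 3 lower, against 32.7% and 42.9% of all genes, with a median of 0.22. After amsacrine 10 of the 16 were lower in p53-null cells, with a median of -0.12, against 55.2% and -0.06 over all genes. Pml, the scaffold of nuclear bodies, had 11.51 and 10.94 on the p53-null controls against 10.21 on WT, a difference of 1.01 ± 0.39. Sirt1, a deacetylase of p53, had 7.28 and 7.21 against 6.40 on WT. Neither reached 2-fold on both arrays.

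The genes farthest below WT had products of red cells, vessels and membrane transport among them. Slc4a1, which encodes band 3, the anion exchanger of the red cell membrane, had 9.39 and 9.28 on the p53-null controls and 11.35 on WT. The difference was -2.02 ± 0.34, and the p53-null pair differed by far less than the distance to WT. Ptgis, the prostacyclin synthase gene, had 6.12 and 6.09 on the p53-null controls against 8.10 on WT (-1.99 ± 0.34). Gpd1, the cytosolic glycerol-3-phosphate dehydrogenase gene, had 6.36 and 6.42 against 8.29 on WT (-1.91 ± 0.34). For these genes both p53-null values were nearly equal. Aqp1, a water channel gene of red cells and endothelium, was more spread, at 6.79 and 7.72 on the p53-null controls against 9.50 on WT.

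Several of the lowest genes were not detected on either p53-null control, so only a bound on their fold can be given. It sets the WT level against the higher of the gene's own value and the lowest detected signal on each p53-null array. Cldn5, a tight junction claudin of endothelial cells, had 5.91 and 5.34 on the p53-null controls and 7.90 on WT, at least 4.23-fold lower. Plvap, the diaphragm protein of fenestrated endothelium, had 5.50 and 5.13 against 7.68 on WT, at least 3.63-fold lower. The same form of bound was 2.71-fold for the glycine transporter gene Slc6a9, 2.57-fold for the complement inhibitor gene Cd59a and 2.33-fold for the spondin gene Spon2. The remaining genes of the 12 lowest were measured on only part of the pair or differed within it. Fbxw5, an F-box adapter of ubiquitin ligases, was not detected on p53-null control 1 (4.97) and had 7.43 on p53-null control 2 against 9.76 on WT. The glutamine transporter gene Slc38a5 had 6.18 and 7.33 against 9.23 on WT, and 1300017J02Rik had 5.22 and 5.78 against 7.74 on WT. Of the 70 lower genes, 26 were detected on neither p53-null control and 8 on only 1, which left 36 measured on all 3 arrays (0.64% of the 5621 genes so measured).

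**Figure D2:**
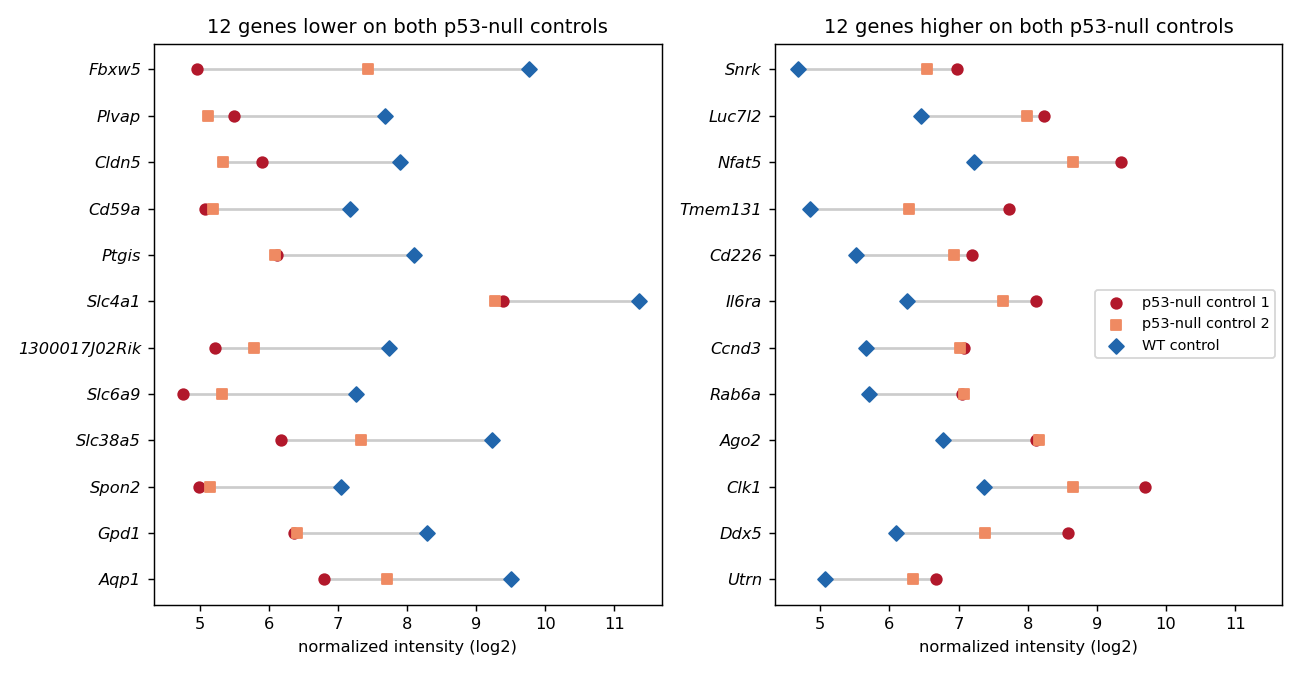
Normalized log2 intensity of the 12 genes farthest below WT (left) and the 12 farthest above WT (right) on p53-null control 1 (circles), p53-null control 2 (squares) and the WT control (diamonds), ordered by the difference of the nearer p53-null array. The p53-null values of Ptgis, Slc4a1, Gpd1, Ccnd3, Rab6a and Ago2 nearly coincide, while those of Fbxw5, Slc38a5 and Tmem131 are spread.

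Erythroid genes lay mostly below WT, except those of haemoglobin alpha and haem synthesis. Of 20 listed erythroid genes 10 were tested; both p53-null controls were below WT at 8 and above it at 0, against 42.9% and 32.7% of all genes. The median difference was -0.99, but it includes genes that were detected only on WT. Over the 7 erythroid genes detected on all 3 arrays, 5 were lower on both p53-null controls, against 41.7% of all genes so detected, and the median was -0.33. Slc4a1 and Aqp1 were measured on all 3 arrays and at least 2-fold lower on both p53-null controls. Klf1, the red cell transcription factor, was not detected on p53-null control 1 (5.50) and had 6.71 on p53-null control 2 against 7.88 on WT. Kel, the Kell blood group gene, was detected on neither p53-null control (4.95 and 5.14) and had 6.30 on WT, at least 1.39-fold lower. Tspan33, a tetraspanin gene, was likewise undetected at 5.39 and 5.12 against 6.67 on WT, at least 1.80-fold lower.

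Hba-a1 (alpha globin) stood at 14.64 and 13.03 on the p53-null controls against 13.48 on WT. Alas2, the first enzyme of haem synthesis in red cells, stood at 10.26 and 7.55 against 8.72 on WT. For both, p53-null control 1 lay above WT and p53-null control 2 below it. Summed deposited signal over the 10 genes was 29972 and 13442 on the p53-null controls and 21369 on WT, so the summed level did not separate the genotypes. Gata1, Epor and Hemgn were among the 7 listed genes with a probe that lay below the detection limit. In cells of a whole spleen, fewer red cell precursors and less of these RNAs per cell cannot be told apart. On the amsacrine arrays 9 of 10 erythroid genes were lower in p53-null cells, against 55.2% of all genes. The median was -0.56, against -0.06 over all genes.

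The promoters of Klf1 and Kel are shown because both genes had lower values on both p53-null controls and their promoters hold GATA motifs, the letters bound by Gata1 in red cell precursors. RefSeq promoter windows (GRCm38.p6, 300 bases, mostly upstream of the start) were found for 8 of the 10 erythroid genes. Capitals mark AGATAA or TGATAA on either strand, read 5′ to 3′ on the gene's strand. Klf1 lies at chr8:84901732-84902031 (plus strand) and Kel at chr6:41704276-41704575 (minus strand).
Klf1: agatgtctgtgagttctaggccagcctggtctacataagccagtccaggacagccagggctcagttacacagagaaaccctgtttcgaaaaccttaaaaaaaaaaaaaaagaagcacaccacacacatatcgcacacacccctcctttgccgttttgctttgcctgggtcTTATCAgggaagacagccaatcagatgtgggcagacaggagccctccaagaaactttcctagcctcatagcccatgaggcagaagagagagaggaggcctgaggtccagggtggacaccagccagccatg
Kel: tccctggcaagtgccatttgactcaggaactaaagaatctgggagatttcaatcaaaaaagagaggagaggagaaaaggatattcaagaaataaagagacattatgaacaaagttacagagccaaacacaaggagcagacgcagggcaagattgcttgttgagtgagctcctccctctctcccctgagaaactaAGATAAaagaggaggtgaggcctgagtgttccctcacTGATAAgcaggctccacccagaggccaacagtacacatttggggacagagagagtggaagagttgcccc
Kel holds 2 such motifs and Klf1 holds 1, on the opposite strand. Of the 8 genes 4 hold at least 1 (the others are Hba-a1 and Alas2, which did not lie on one side of WT). Aqp1 and Tspan33, whose values were also lower, hold 0, and 18.6% of all 32851 promoter windows do. A match describes letters only.

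Macrophage genes were lower on both p53-null controls almost throughout. All 14 tested of 20 listed genes were detected on all 3 arrays; 13 were below WT on both p53-null controls and 0 above, with a median of -0.63. Among all genes detected on all 3 arrays, 41.7% were below WT on both. Hmox1, the haem oxygenase that macrophages use to break down haem, had 8.91 and 10.25 on the p53-null controls and 11.62 on WT, a difference of -2.04 ± 0.58. Vcam1, an adhesion molecule of red pulp macrophages, had 10.26 and 10.12 against 11.43 on WT (-1.25 ± 0.34). These 2 genes were at least 2-fold lower on both arrays.

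The complement genes C1qa, C1qb and C1qc, made by macrophages, followed in size. C1qa had 8.30 and 7.90 on the p53-null controls against 9.30 on WT, C1qb 8.98 and 9.11 against 10.05, and C1qc 9.12 and 8.59 against 9.72. The iron exporter gene Slc40a1 had 11.24 and 10.88 against 11.72 on WT. In each of these genes both p53-null values lay below WT without overlap. Lgmn, a lysosomal protease gene, was the one that split, at 10.31 and 9.36 against 9.59. Summed deposited signal over the 14 genes was 14845 and 15929 on the p53-null controls and 28369 on WT; Spic, Marco, Cd5l and Cd163 were below the detection limit. On the amsacrine arrays the list lay on both sides of WT. There 6 of 14 were lower in p53-null cells and the median was 0.03, against 55.2% and -0.06 over all genes.

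Interferon response genes were higher on both p53-null controls. Of 35 listed genes 21 were tested; 16 were above WT on both arrays and 2 below, with a median of 0.71. Over the 16 genes detected on all 3 arrays, 12 were above WT on both and the median was 0.62, against 33.2% and -0.06 for all such genes. Ddx58, which encodes the viral RNA sensor RIG-I, had 8.89 and 7.66 on the p53-null controls and 6.55 on WT (1.73 ± 0.55). Oas2, an oligoadenylate synthetase gene, had 7.58 and 6.93 against 5.84 on WT (1.42 ± 0.41). Both were at least 2-fold higher on both arrays, and in both p53-null control 1 lay farther from WT.

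The transcription factor genes of the pathway were also higher. Stat2 had 7.26 and 6.37 on the p53-null controls and was not detected on WT (5.55), at least 2.01-fold higher. Irf9, its partner, had 10.28 and 9.56 against 9.04 on WT. Ifit3, an antiviral effector gene, was detected only on p53-null control 1 (6.80), with 5.72 on p53-null control 2 and 4.97 on WT. The p53-null control 2 value lay below the lowest detected signal on WT (5.81), so no bound on its fold is given. Irf7 (7.80 and 8.11 against 7.90) and Ifitm3 (10.83 and 11.09 against 10.99) straddled WT, and Bst2 (9.88 and 11.41 against 11.57) was below it. On the amsacrine arrays 14 of 21 were higher in p53-null cells, against 44.7% of all genes. The median was 0.19, against -0.06 over all genes, with 1.25 for Ddx58 and 1.01 for Stat2. Only part of the list thus lay on the same side again, though a larger share than of all genes. The WT amsacrine value of Stat2 (5.72) lay below the lowest detected signal of that array (6.05), so the size of its difference is uncertain.

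The promoters of Ddx58, Ifit3 and Stat2 are shown because these genes lay above both WT arrays on each p53-null array of the study. Their promoters also hold the interferon-stimulated response element, letters known from promoters of interferon-induced genes. Ifit3 was not detected on p53-null control 2, and its p53-null amsacrine value (5.77) lay below the lowest detected signal of that array (5.95). On the WT control and amsacrine arrays, Ifit3 (4.97 and 4.89) and Stat2 (5.55 and 5.72) lay below the lowest detected signal (5.81 and 6.05). Capitals mark GAAA, any 2 bases and GAAA again, on either strand, so that the reverse complement appears where the motif runs the other way. In RefSeq windows of GRCm38.p6, Ddx58 lies at chr4:40239776-40240075 (minus strand), Ifit3 at chr19:34583279-34583578 (plus strand) and Stat2 at chr10:128270248-128270547 (plus strand).
Ddx58: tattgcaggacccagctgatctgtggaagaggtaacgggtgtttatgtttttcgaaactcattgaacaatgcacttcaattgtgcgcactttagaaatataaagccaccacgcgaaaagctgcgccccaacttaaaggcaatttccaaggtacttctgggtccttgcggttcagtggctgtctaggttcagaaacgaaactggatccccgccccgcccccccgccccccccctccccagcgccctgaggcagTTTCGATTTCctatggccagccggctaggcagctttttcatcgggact
Ifit3: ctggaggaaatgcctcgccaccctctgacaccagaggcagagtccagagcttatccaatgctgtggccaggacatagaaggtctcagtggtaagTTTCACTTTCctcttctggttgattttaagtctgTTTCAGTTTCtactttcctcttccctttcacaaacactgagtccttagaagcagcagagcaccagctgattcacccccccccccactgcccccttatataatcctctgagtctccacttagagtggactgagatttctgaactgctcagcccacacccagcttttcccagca
Stat2: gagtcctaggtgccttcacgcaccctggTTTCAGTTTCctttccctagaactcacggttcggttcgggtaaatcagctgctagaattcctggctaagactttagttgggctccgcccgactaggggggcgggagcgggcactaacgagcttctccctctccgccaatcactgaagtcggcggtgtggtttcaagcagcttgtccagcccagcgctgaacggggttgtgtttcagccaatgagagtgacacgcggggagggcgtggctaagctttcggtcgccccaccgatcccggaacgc
Ifit3 holds 2 such elements and the others 1 each. Of the 17 interferon response genes with a window, 11 hold at least 1, and 3.44% of all 32851 windows do. The list was drawn from genes known to answer interferon, so this share describes the list and says nothing of why its levels differed.

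The genes farthest above WT included kinases, RNA-binding proteins and surface receptors. Snrk, a kinase related to SNF1, had 6.98 and 6.54 on the p53-null controls and was not detected on WT (4.67), at least 1.93-fold higher. Luc7l2, a splicing factor gene, had 8.24 and 8.0 against 6.46 on WT (1.66 ± 0.35). Nfat5, the transcription factor of osmotic stress, had 9.35 and 8.66 against 7.22 on WT (1.78 ± 0.42). In all 3 both p53-null values exceeded WT by more than they differed from each other. Il6ra, the interleukin 6 receptor, had 8.12 and 7.64 against 6.26 on WT (1.62 ± 0.38), and Ago2, the argonaute that cleaves RNA targets, had 8.11 and 8.16 against 6.78 (1.36 ± 0.34).

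Clk1, a kinase of splicing factors, had 9.69 and 8.66 on the p53-null controls against 7.37 on WT. Ddx5, an RNA helicase gene, had 8.58 and 7.37 against 6.09 on WT. In both the p53-null pair differed by about as much as its nearer member did from WT. The other 5 of the 12 were not detected on WT: the lower bound of the fold was 2.39 for Cd226 (an activating receptor of T and NK cells), 2.36 for Ccnd3 (cyclin D3), 2.38 for Rab6a (a Golgi GTPase), 2.28 for Tmem131 and 1.62 for Utrn (utrophin). Another probe of Rab6a lay on the opposite side of WT. Of the 48 higher genes, 20 were not detected on WT and 28 were measured on all 3 arrays (0.498% of the 5621 genes so measured), and p53-null control 1 was the farther array in 41.

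Outside the brightest probe of each gene, more probes were at least 2-fold higher than lower, while the brightest probes had more lower ones. Among 1212 further probes of named genes, 50 (4.13%) were at least 2-fold higher on both p53-null controls and 6 (0.495%) lower. Among 1243 probes without a single gene symbol, 48 (3.86%) were higher and 10 (0.805%) lower. The amsacrine arrays showed the same lean: 141 further probes were at least 2-fold higher and 19 lower in p53-null cells, and 131 against 26 of the probes without a symbol, while the brightest probes had 167 and 173. The part of this probe class in the 48 higher genes was not tested. Of those 48 genes, 8 had several probes, and in 4 of these another probe lay on the opposite side.

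On the p53-null controls, lymphocyte markers lay near WT for B cells and somewhat above it for T cells. The B cell list had a median of 0.09, with 5 of 14 genes higher and 3 lower on both p53-null controls. After amsacrine 12 of these 14 were higher in p53-null cells with a median of 0.42, against 44.7% and -0.06 over all genes. Cd22, an inhibitory receptor of B cells, had 9.57 and 9.31 on the p53-null controls against 8.52 on WT. The T cell list had a median of 0.21, with 9 of 14 higher and 3 lower, against 32.7% and 42.9% of all genes; after amsacrine 7 were higher and 7 lower in p53-null cells. Cd247, the zeta chain of the T cell receptor complex, was at least 2-fold higher on both, at 8.33 and 8.18 against 7.02 on WT, although its other probe lay on the opposite side. Lat, an adapter of T cell receptor signalling, was lower at 9.44 and 9.62 against 10.35.

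Neutrophil and immediate early genes separated the p53-null pair rather than the genotypes. Over all 6899 genes, 1683 were split around WT. Of 18 neutrophil genes 12 were split, with medians of -0.73 on p53-null control 1 and 0.41 on p53-null control 2. Of 22 immediate early genes 13 were split, with -0.87 and 0.37. In both lists p53-null control 1 lay below WT and p53-null control 2 above it. Lyz2, lysozyme of myeloid cells, was an exception in the neutrophil list, with 12.66 and 12.22 on the p53-null controls against 11.26 on WT.

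By the median over all tested genes, growth and stress lists differed by less than the macrophage, erythroid and interferon response lists. Their counts are read against the 42.9% of all genes below and the 32.7% above WT on both p53-null controls. Over genes detected on all 3 arrays this order did not hold throughout. There 9 of 12 mitotic genes were lower with a median of -0.43, beyond the erythroid median of -0.33. DNA replication genes were lower on both p53-null controls at 17 of 26 and higher at 4, with a median of -0.27, and Rrm2, a ribonucleotide reductase subunit, had 6.20 and 6.31 against 7.26 on WT. Mitotic genes were lower at 9 of 13 and higher at 4 (median -0.37). On the amsacrine arrays the medians of these lists were 0.12 and 0.10, on the other side of 0. Heat shock genes were higher at 6 of 9 and lower at 1 (median 0.32). Hsph1, a heat shock chaperone, had 10.77 and 10.78 against 9.77 on WT. Nrf2 antioxidant genes were lower at 7 of 10 (median -0.42), led by Hmox1. Integrated stress response genes were lower at 11 of 18 (median -0.57). Of the 12 detected on all 3 arrays 5 were lower (41.7%), the share found over all genes so detected. After amsacrine 4 of 9 heat shock genes (median -0.10) and 11 of 18 integrated stress response genes (0.13) were higher in p53-null cells. Of all genes 44.7% were higher there. Hsph1 differed by -0.49 after amsacrine. Nrf2 antioxidant genes were lower there at 8 of 10 (median -0.25), against 55.2% of all genes. Genes within 10 Mb of Trp53 on chromosome 11 had a median of -0.19 over 145 genes, against -0.08 over all genes. Both p53-null controls were below WT at 72 of them and above it at 44. Only 1 was at least 2-fold lower on both arrays, against 1.01% of all genes, which is too few to compare shares. It was Tnfsf13, the gene of the cytokine APRIL, with 8.23 and 8.16 on the p53-null controls against 9.23 on WT.

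Most other lists were split or lay near the background. Apoptosis genes were higher on both p53-null controls at 6 of 16 and lower at 5, against 32.7% and 42.9% of all genes. Their median was -0.14. Casp8, an initiator caspase, had 10.26 and 9.50 on the p53-null controls against 8.61 on WT. Bcl2l11, the gene of the death-promoting protein Bim, had 6.68 and 5.89 against an undetected 4.94 on WT. Both therefore lay above WT on each array, in a list with no common direction. Of 16 NF-kB genes 7 were split, against 1683 of all 6899 genes. Rel, a subunit of NF-kB, was detected on neither p53-null control (5.15 and 5.53) against 6.61 on WT, at least 1.72-fold lower. Glycolysis and hypoxia genes had a median of -0.05, with Pfkp, a phosphofructokinase, at 9.16 and 8.33 against 7.54 on WT. Cytosolic ribosomal protein genes had a median of -0.07, which turned to 0.074 with cyclic loess. Oxidative phosphorylation genes had a median of -0.17, with 10 of 22 split. NK cell genes had a median of -0.03 and plasma cell genes 0.07. After amsacrine 10 of 11 NK cell genes were lower in p53-null cells with a median of -0.56, against 55.2% and -0.06 over all genes. The 6 dendritic cell genes had a median of -0.74, which came mainly from p53-null control 1 (-1.11, against -0.14 on p53-null control 2).

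**Figure D3:**
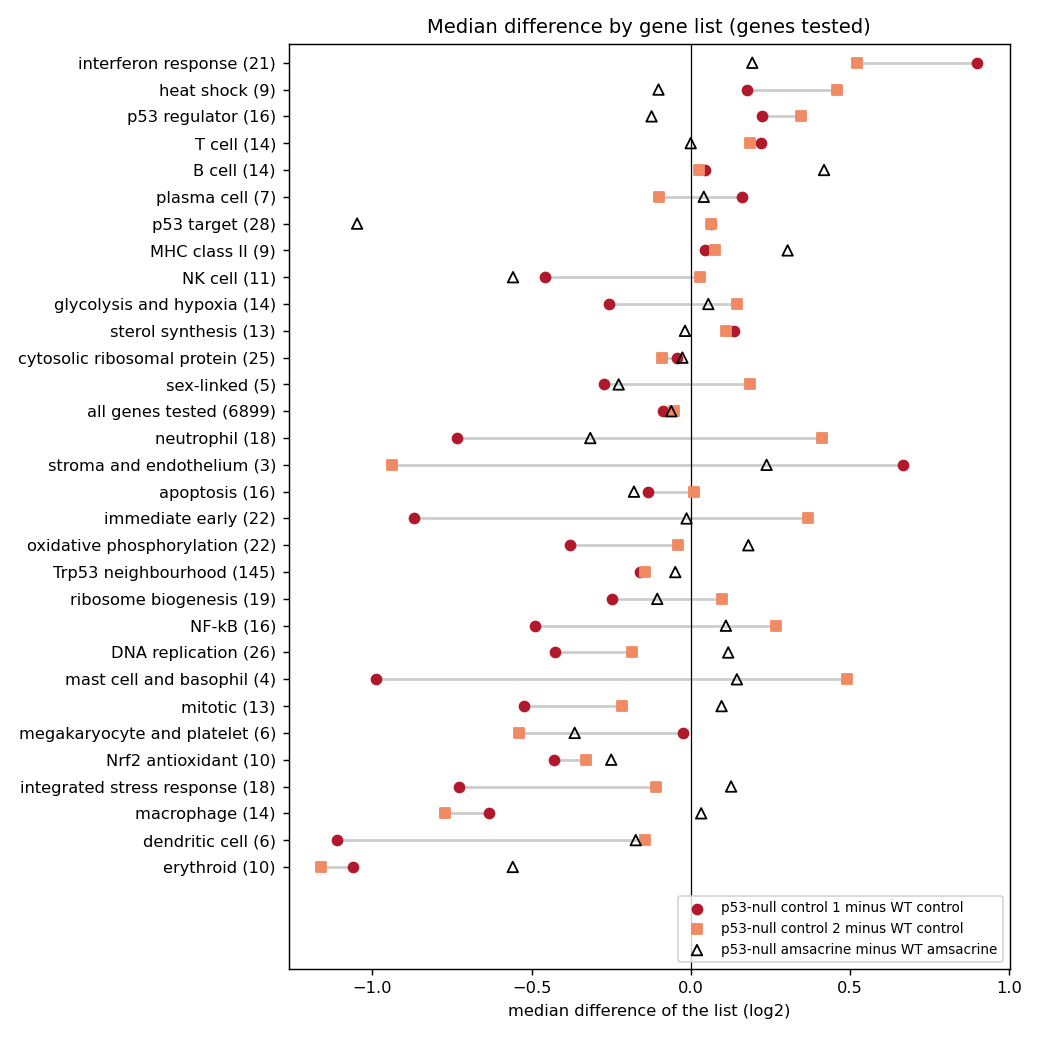
Median p53-null minus WT difference (log2) of each gene list on p53-null control 1 (circles), p53-null control 2 (squares) and the amsacrine arrays (open triangles), with the number of genes tested in brackets. Macrophage, erythroid and interferon response medians lie well to one side of 0 on both p53-null controls; neutrophil and immediate early medians fall on opposite sides; the p53 target median is near 0 on the controls and at -1.05 after amsacrine.

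The amsacrine arrays share no array with the control comparison and gave the p53-null minus WT difference in treated cells, with 1 array each. The labels do not say whether treated and control cells of a genotype came from the same pool. The 2 comparisons may therefore not be independent, and traits of a pool cannot be told apart from genotype. Over the 5216 genes with both p53-null controls on one side of WT, 73% had the same sign there. Of the 48 higher genes 42 (87.5%) had it, and of the 70 lower genes 61 (87.1%). A difference of at least 2-fold the same way was seen in 15 of the 48 higher genes (31.2%), against 2.42% of all genes, and in 6 of the 70 lower genes (8.57%), against 2.51%. Across genes, which are not independent replicates, the differences of both comparisons had a Pearson correlation of 0.45 over 6899 genes.

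The 6 lower genes were Mgmt, Dcxr, Crip2, Slc4a1, Ptgis and Cavin2. Slc4a1 differed by -2.20 on the amsacrine arrays and -2.02 on the controls, Crip2 by -1.83 and -1.76, and Ptgis by -1.24 and -1.99. For all of them except Slc4a1, the p53-null amsacrine value lay below the lowest detected signal of that array (5.95). The sizes of those differences are therefore uncertain. The 15 higher genes included Snrk (1.85 on the amsacrine arrays), Gdi2 (1.64), Cnep1r1 (1.56), Rab6a (1.44), Ddx58 (1.25), Tmem131 (1.18), Luc7l2 (1.08) and Clk1 (1.04). The WT amsacrine values of Snrk, Gdi2 and Cnep1r1 lay below the lowest detected signal of that array (6.05), so the sizes of their differences are uncertain. By contrast Slc6a9, far below WT on the controls, differed by -0.08, with 8.02 on the p53-null and 8.10 on the WT amsacrine array. Fbxw5, the gene farthest below WT on the controls, differed by -0.12. Its amsacrine values (4.73 and 4.85) both lay below the lowest detected signal, so this compares background values.

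**Figure D4:**
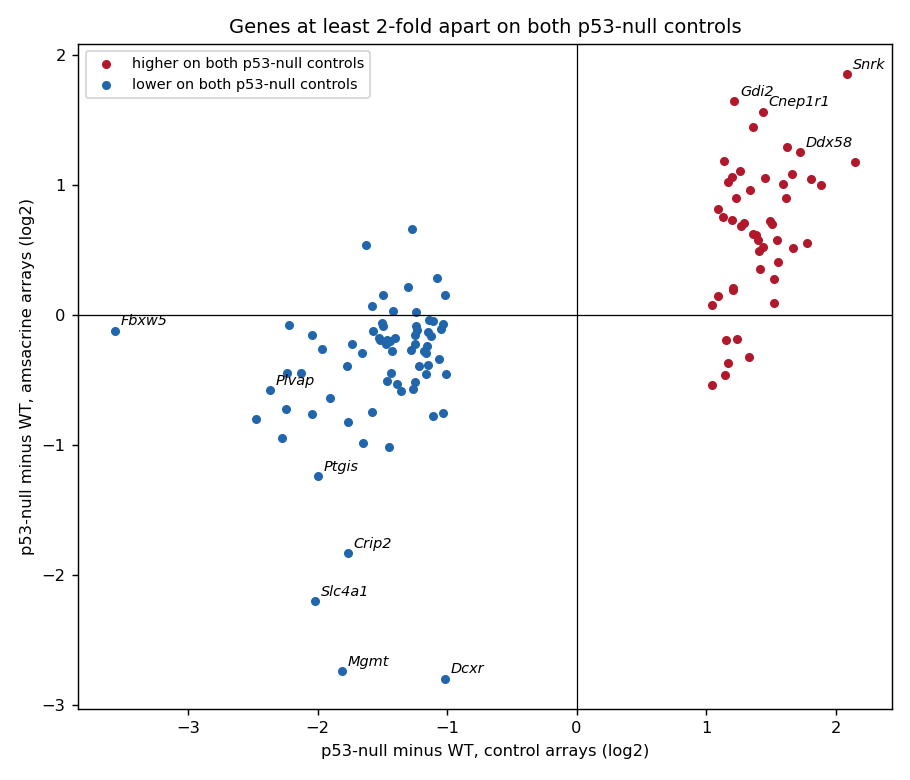
Difference of p53-null minus WT (log2) on the control arrays (horizontal axis) and on the amsacrine arrays (vertical axis) for the 48 genes at least 2-fold higher (red) and the 70 at least 2-fold lower (blue) on both p53-null controls. The sign was the same for 42 of the higher and 61 of the lower genes; Dcxr, Mgmt, Slc4a1 and Crip2 lie lowest.

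Counting all 4 p53-null arrays against both WT arrays, a comparison added after the data were seen and that mixes treatments, 383 genes (5.55%) were above WT on every p53-null array and 685 (9.93%) below. Among the 48 and 70 genes, 13 (27.1%) and 17 (24.3%) met this. These genes were chosen on the 3 control arrays, which are part of this count. Their shares are therefore raised by the choice and give no separate support. The widest gap below WT was that of Mgmt, the gene of the enzyme that removes alkyl groups from guanine in DNA. It had 6.45, 7.21, 5.57 and 6.95 on p53-null control 1, control 2, amsacrine and irradiated arrays, against 8.64 and 8.32 on the WT control and amsacrine arrays. Dcxr came next, with 6.81, 6.78, 5.43 and 6.69 against 7.81 and 8.23. Several genes, such as Arid5a (gap -0.77, p53-null minus WT) and Gpd1 (-0.64), came before Crip2 (-0.56), a LIM domain gene. Crip2 had 7.06, 7.21, 5.94 and 6.13 against 8.90 and 7.77. In Mgmt, Dcxr and Crip2 the highest p53-null value lay at least 0.56 below the lowest WT value. On the Δ122p53 control array Mgmt stood at 5.56, Dcxr at 5.49 and Crip2 at 6.57.

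The widest gap above WT was that of Cnep1r1, a regulatory subunit of a lipin phosphatase, with 7.32, 6.84, 7.55 and 7.34 on the p53-null arrays against 5.64 and 5.99 on WT. Gdi2, a Rab GTPase regulator, had 5.83, 5.98, 6.65 and 6.03 against 4.69 and 5.01. Dctd (gap 0.81) and Ifit3 (0.76) came before Pcbp1 (0.75), an RNA-binding protein gene. Pcbp1 had 9.61, 9.93, 9.98 and 9.50 against 8.76 and 8.55. Cnep1r1 and Gdi2 were not detected on the WT control. For Cnep1r1 the distance there is a bound, at least 2.42-fold. Gdi2 was not detected on p53-null control 1 either, so no bound is given for it. With genotype and amsacrine as additive terms in limma, fitted without the irradiated array, 0 genes passed (smallest adjusted p 0.459) and 737 (10.7%) had an unadjusted p under 0.05.

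**Figure D5:**
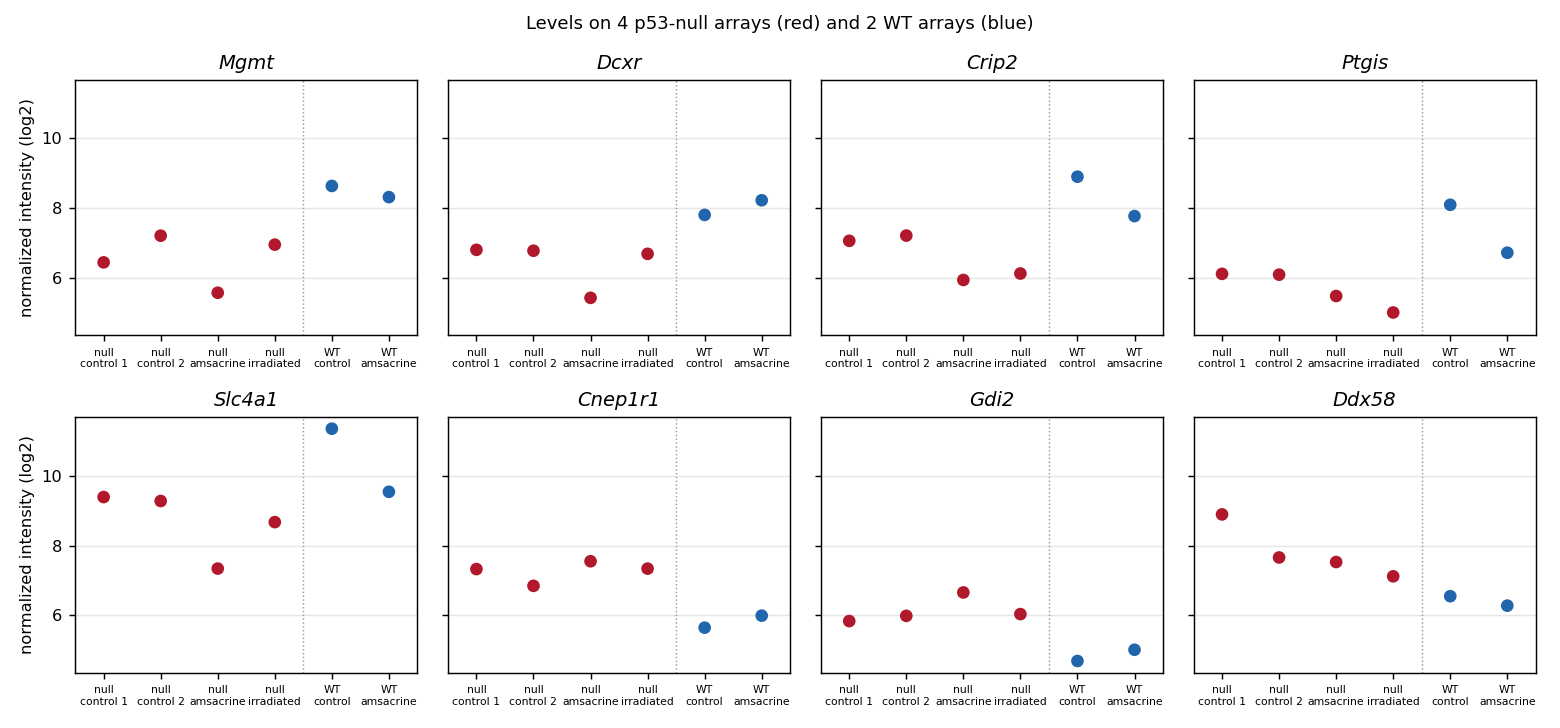
Normalized log2 intensity of 8 genes on the 4 p53-null arrays (red, left of the dotted line) and the 2 WT arrays (blue). The WT points of Mgmt, Dcxr, Crip2, Ptgis and Slc4a1 lie above every p53-null point and those of Cnep1r1, Gdi2 and Ddx58 below.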

How the data were processed

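RNA of pooled splenocytes was measured on 8 Illumina 1-colour arrays. The authors deposited probe signal intensity values and detection p-values for 24613 probes, non-normalized per the file headers. The authors also deposited a table of values treated here as log2 and used only as an alternative; per the submitters' processing notes lumi was used, with no version given, and the notes do not say whether the scale is log2 or variance-stabilised.

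In R 4.3.3 with limma 3.58.1, intensities of all 8 arrays were background-corrected by neqc from the detection p-values (offset 16), scaled between arrays by quantiles and log2-transformed. Symbols were updated through Entrez identifiers with the RefSeq gene table of GRCm38.p6; 1243 detected probes without a single symbol were left out of the gene tests. The fit used the 2 p53-null controls and the WT control, with 1 residual degree of freedom, a prior of 4.95 degrees of freedom and a prior SD of 0.303, and 2-sided p-values were adjusted by Benjamini-Hochberg. The lone WT array was assumed to vary like the pair. The code was tested on simulated data. The number of arrays limits the precision.

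Genes were named by rank of the difference of whichever p53-null control lay nearer to WT: the 12 highest, the 12 lowest, the 2 largest of each list, and Cdkn1a, Mdm2, Trp53, Xist and Eif2s3y where measured. Other genes were named for their role in a list or after their values were seen. The genes and lists were chosen with earlier results of these data known. Alternatives were another offset, no background correction, cyclic loess, scaling of the 3 arrays alone, the deposited values, other detection filters, all probes, an additive model and leaving out each p53-null control.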

Additional observations from a re-analysis of the deposited data

How the results depend on the processing

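Of the recomputed differences of the genes chosen by the naming rule, 720 kept their direction and 1 did not. That of Eif2s3y ran from -0.81 to 0.50 with 1 p53-null control left out. Genes such as Plk2, Hba-a1 and Alas2, on which the p53-null pair lay on opposite sides of WT, were not counted. Genes named by rank had both p53-null controls on one side of WT. Leaving out 1 of these arrays could therefore not turn them, and this part of the 720 says nothing of stability. The count with an adjusted limma p under 0.05 was 0 in every setting tried. The counts of genes at least 2-fold higher and lower on both p53-null controls, 48 and 70, were 9 and 29 with offset 50, 7 and 25 without background correction, and 0 and 9 in the deposited values. They were 28 and 36 for genes detected on all 3 arrays, and 13 and 17 where all 4 p53-null arrays also lay beyond both WT arrays (added after the data were seen). The higher count was 82 with cyclic loess and 146 over all probes. Leaving out 1 p53-null control gave 93 to 475 higher and 107 to 543 lower genes; the smaller counts are those without p53-null control 1, and the larger ones rest on that array alone. All calls with offset 50, without background correction and in the deposited values were among the 48 and 70. The count at an unadjusted p under 0.05, 392, was 1170 without a detection filter, 651 over all probes and 737 in the additive model, which gave 382 to 782 with 1 p53-null control left out. List medians changed sign, beyond the spread of the p53-null pair, for B cell (-0.0041) and cytosolic ribosomal protein (0.074) with cyclic loess, p53 target (-0.029) without a filter, apoptosis (-0.13 to 0.011 with 1 p53-null control left out), and sterol synthesis (0.11 and 0.14) without p53-null control 1 and 2. Within that spread, leaving out p53-null control 1 also turned the medians of neutrophil (0.41), immediate early (0.37), NF-kB (0.27), mast cell and basophil (0.49), glycolysis and hypoxia (0.14), sex-linked (0.18) and plasma cell (-0.10) genes, and, past it, ribosome biogenesis (0.099); leaving out p53-null control 2 turned stroma and endothelium (0.67). The restriction to genes detected on all 3 arrays turned mast cell and basophil (0.23) and glycolysis and hypoxia (0.032), and the deposited values turned stroma and endothelium (0.00031). The NK cell median, near 0, had either sign. The causes of these shifts were not tested. No paired analysis was possible because the WT control has 1 array and shares only 1 replicate number with the p53-null pair. Genes near background are the least certain: 20 of the 48 higher genes were undetected on WT.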

Other observations

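Genes of the exocrine pancreas, an organ beside the spleen, had lower values on both p53-null controls; they were picked after their values were seen and have no test. Amy2a5, pancreatic amylase, had 9.85 and 7.92 on the p53-null controls and 10.32 on WT. Ctrb1, chymotrypsinogen, had 6.83 and an undetected 5.68 against 7.60 on WT, and Cela1, an elastase gene, had 6.66 and 6.48 against 7.96. The next 3 were detected only on WT. Cpa1, a carboxypeptidase gene, had 5.49 and 4.90 against 6.32 on WT (at least 1.41-fold lower), Clps, colipase, had 5.51 and 4.86 against 6.69 (at least 1.82-fold), and Try4, a trypsin gene of a multigene family, had 5.19 and 4.99 against 6.24 (at least 1.33-fold). On the amsacrine arrays p53-null minus WT was -0.68 for Amy2a5, -1.21 for Ctrb1, -0.93 for Cpa1, -0.54 for Cela1, -0.39 for Try4 and -0.06 for Clps. Both amsacrine values of Try4 (5.32 and 5.71 on p53-null and WT) lay below the lowest detected signal of their array.

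Further genes known from endothelium, also picked after their values were seen, had lower values beside Plvap and Cldn5. Egfl7 had 6.56 and 6.29 on the p53-null controls and 8.19 on WT, and was measured on all 3. Robo4 and Ramp2 were detected only on WT: Robo4 had 4.93 and 4.81 against 6.00 (at least 1.13-fold lower), and Ramp2 had 5.82 and 5.58 against 6.86 (at least 2.06-fold lower). The endothelial marker Pecam1 was not lower, at 9.81 and 9.12 against 8.83 on WT, and only 3 of 14 listed stroma and endothelium genes were tested. The part of such cells in the lower genes was not tested.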
